A study of Mus musculus with 21 samples.

Results

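The data were gene-level TPM values, a measure of relative transcript abundance, for pancreatic tumour cells of the mouse clones 6694c2 and 6419c5. The cells had been grown under the skin of C57BL/6 mice, sorted back from the tumours 3 weeks later and given no treatment. For each clone there was a parental line, whose titles give only the name of the clone and which serves as the control, and 2 lines labelled as EPHA2 knockouts, called line A and line B after the letters in the deposited table. There were 4 libraries of each 6694c2 line and 3 of each 6419c5 line, 21 in all. How the gene was edited is not stated in the labels, and neither is whether a line's libraries came from different animals or which of its numbered lines is line A. With 1 parental line and 2 knockout lines per clone, the knockout cannot be told apart from other differences between lines.

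The subject here is the set of genes that were lower than the parental line in all 4 knockout lines. A gene was taken when its mean reached 5 TPM in both parental lines and when its mean in each knockout line was at most 0.7 times the mean of the parental line of its clone. By the rule, Siglec15, Mmp3 and Grem1 were left out. Of the 24623 genes in the table, 9412 reached the parental floor, and 73 of those met the rule, which is 0.776%. For scale, 145 of the 9412 genes, or 1.54%, were at least as far above the parental line in all 4 lines, taking the inverse of 0.7 as the threshold. All 73 passed the later filter of at least 1 TPM in at least 3 libraries. Because the comparison of knockout with parental chose these genes, their values in that comparison are given as a description, with no test.

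EPHA2 belongs to the Eph receptor tyrosine kinases. It binds ephrins on neighbouring cells and feeds into RAS and ERK signalling, adhesion and cell shape. Pancreatic tumour cells secrete growth factors that act on themselves and on the cells around them, among them the EGF receptor ligands amphiregulin and epiregulin, activins and Wnt ligands. They also secrete proteases, protease inhibitors and matrix components that remodel the tissue around the tumour.

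By their known roles, the 73 genes comprised 12 secreted ligands and growth factors, 13 matrix components, proteases and other secreted or matrix-related proteins, and 17 receptors, channels, transporters and other membrane proteins. The remainder were 12 signalling proteins inside the cell, 6 enzymes of metabolism and protein folding, 7 histone and transcription regulator genes, the cornified envelope gene Sprr1a and 5 non-coding or unnamed genes. The median ratio of the 73 to the parental line was 0.584 in 6694c2 line A, 0.185 in 6694c2 line B, 0.387 in 6419c5 line A and 0.413 in 6419c5 line B. Among the 9412 genes that met the floor the same medians were 1.04, 1.03, 1.03 and 1.06. The reduction was least in 6694c2 line A, where 45 of the 73 had their highest ratio and 34 lay above 0.6. It was greatest in 6694c2 line B, where 49 of the 73 had their lowest ratio and 44 were at or under 0.25. All 4 ratios were at most 0.5 for 16 of the genes.

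**Figure D1:**
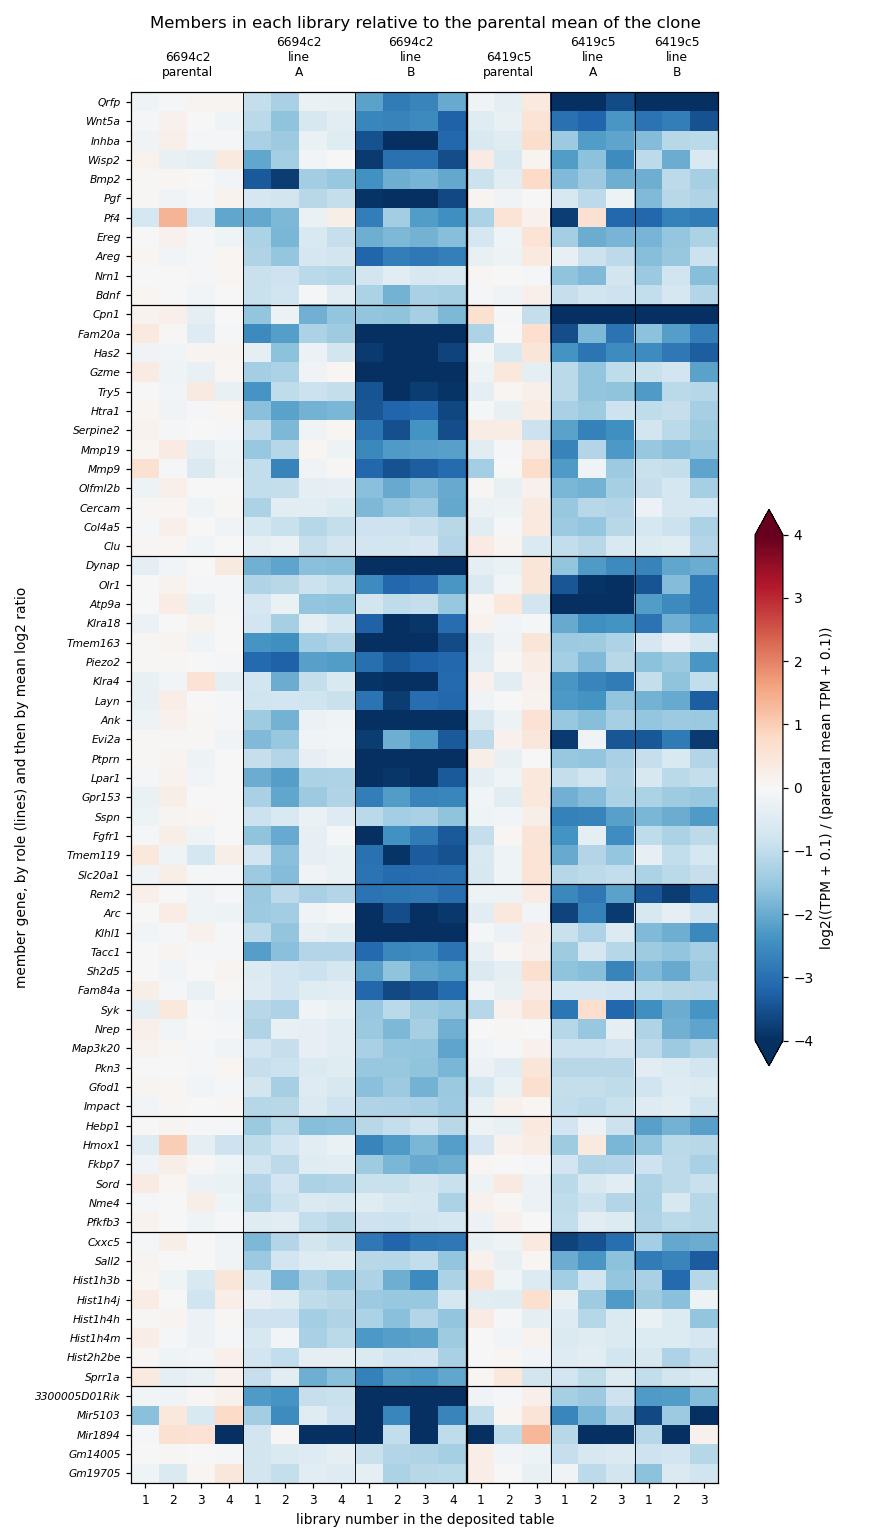
Heat map of 72 of the 73 genes (rows, italic, grouped by role) in the 21 libraries (columns, by line and by library number in the deposited table); colour is log2((TPM + 0.1) / (parental mean TPM of the clone + 0.1)), blue below and red above the parental mean, with the scale ending at 4 on either side. The blue is palest in libraries 3 and 4 of 6694c2 line A and deepest in 6694c2 line B, and Pf4, Syk, Hmox1 and Evi2a stand out in library 2 of 6419c5 line A.

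The libraries of a line were not alike for these genes. In 6694c2 line A, libraries 1 and 2 both lay below libraries 3 and 4 for 49 of the 73, against 47.8% of the 9412 genes, and both lay above for 15, against 16.2%. In the 6419c5 parental line, library 3 was the highest for 46 of the 73, against 44.3%. That library listed the microRNA gene Mir6236 at 91141.5 TPM, against 45357.6 and 39823.9 in libraries 1 and 2. Library 4 of 6694c2 line B listed it at 145023 TPM. Without these 2 libraries 64 genes met the rule, 59 of them among the 73. Areg, Hebp1, Hmox1 and Tmem163 were among the 14 members lost, and the same 14 were lost without the 6419c5 library alone. The part of Mir6236 in these values was not tested. Every 6694c2 knockout library lay below the lowest parental library for 51 of the 73, against a background of 5.75% of the 9412 genes. In 6419c5 this held for 54, against a background of 10.6%. It held in both clones for 44, against 1.47%, and since the rule used these values nothing is read from the comparison. The summed TPM of 15 macrophage markers ran from 179 to 1354 in the 6694c2 parental libraries, from 173 to 955 in line A and from 64.9 to 347 in line B. In 6419c5 it ran from 919 to 2518 in the parental libraries, from 202 to 4329 in line A and from 226 to 373 in line B. Marco had a mean under 1 TPM in all 6 lines, while Csf1r was between 6.31 and 59.4. The sum of 12 fibroblast markers ran from 247 to 380, 217 to 877 and 78.3 to 134 in the 6694c2 parental line, line A and line B, and from 1243 to 2029, 725 to 900 and 1776 to 2644 in those of 6419c5. That sum follows its most abundant genes: from the parental line to line B of 6419c5 the mean of Col1a1 went from 538 to 1069 TPM, while that of Dcn went from 138 to 10.7, and 0 of the 12 rose and 5 fell in the test of the 6419c5 knockout lines against parental. All 10 markers of pancreatic tumour epithelium were at or above 5 TPM in every line, and their sum ran from 6212 to 8478 TPM in the 6419c5 parental libraries and from 13739 to 17639 in its knockout libraries. In 6694c2 it ran from 7900 to 9499 in the parental line, 6825 to 9315 in line A and 8114 to 9301 in line B. In bulk samples, fewer cells of a type and less RNA per cell cannot be told apart.

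Epha2 itself was not among the 73 genes. It was 245 ± 5.11 TPM (SD, n = 4) in the 6694c2 parental line, 115 ± 18.3 in line A and 97.8 ± 11.4 in line B. In 6419c5 it was 176 ± 13.5 TPM (SD, n = 3), 151 ± 6.05 and 197 ± 25.7 in the same order. Its transcript was thus 0.469 and 0.400 times the parental level in the 6694c2 lines, and 0.854 and 1.12 times in those of 6419c5. A transcript level does not show whether the protein is made, so in 6419c5 every direction given here rests on the labels of the lines.

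Promoter sequences were available for 45 of the 73 genes in the RefSeq table for GRCm38.p6 (250 bases before to 50 after the start), with 66 promoters in all because some genes have several starts. The following 4 are shown because they belong to described members and hold some of the motifs counted next: Areg, chr5:91139349-91139648 on the plus strand; Inhba, chr13:16011601-16011900 on the plus strand; Sprr1a, chr3:92485832-92486131 on the minus strand; and Olr1, chr6:129507116-129507415 on the minus strand. Capitals mark matches to a CRE (TGACGTCA) and a TATA box (TATAAA) in Areg, and to a TATA box in Inhba. They also mark a pair of AP-1 matches (TGAGTCA) and a TATA box match in Sprr1a, and an AP-1 match in Olr1. Counted from the start site, the TATAAA letters began at -31 in Areg, -43 in Sprr1a and -91 in Inhba.
Areg: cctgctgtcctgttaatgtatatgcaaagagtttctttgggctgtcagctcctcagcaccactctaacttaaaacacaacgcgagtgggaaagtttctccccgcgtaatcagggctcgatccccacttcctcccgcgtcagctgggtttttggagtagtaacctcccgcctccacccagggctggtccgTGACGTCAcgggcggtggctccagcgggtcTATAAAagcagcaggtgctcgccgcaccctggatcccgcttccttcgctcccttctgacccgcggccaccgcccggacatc
Inhba: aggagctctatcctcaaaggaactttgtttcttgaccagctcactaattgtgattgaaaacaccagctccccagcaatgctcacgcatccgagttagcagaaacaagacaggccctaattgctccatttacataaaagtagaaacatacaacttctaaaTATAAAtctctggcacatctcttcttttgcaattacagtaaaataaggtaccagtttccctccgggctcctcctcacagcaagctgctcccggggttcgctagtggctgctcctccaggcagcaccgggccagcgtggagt
Sprr1a: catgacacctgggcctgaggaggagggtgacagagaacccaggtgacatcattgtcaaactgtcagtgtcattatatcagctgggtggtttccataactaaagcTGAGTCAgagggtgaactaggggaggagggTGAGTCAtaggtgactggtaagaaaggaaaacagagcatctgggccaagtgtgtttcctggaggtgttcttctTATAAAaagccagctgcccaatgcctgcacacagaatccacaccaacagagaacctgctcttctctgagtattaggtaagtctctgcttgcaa
Olr1: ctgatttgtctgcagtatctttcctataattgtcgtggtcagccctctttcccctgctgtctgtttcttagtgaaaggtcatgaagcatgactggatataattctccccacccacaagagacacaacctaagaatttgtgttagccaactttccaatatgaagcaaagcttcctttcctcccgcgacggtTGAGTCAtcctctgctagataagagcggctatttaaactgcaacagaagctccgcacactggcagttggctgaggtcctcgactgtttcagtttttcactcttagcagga

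The AP-1 motif TGACTCA, read on both strands, was in 7.58% of the 66 promoters and in 5.2% of all 32851 promoters of the same length. The CRE TGACGTCA was in 3.03% against 1.79%, the TEAD motif GGAATG in 18.2% against 14.7%, and the SMAD motif CAGAC in 54.5% against 49.6%. The GC box GGGCGG was in 33 of the 66 promoters and in 35.7% of all, and the CCAAT box CCAAT in 28.8% against 37.4%. The TATA box TATAAA was in 13.6% of both sets, the E-box CACGTG in 6.06% against 7.15%, and the SMAD palindrome GTCTAGAC in none of the 66 against 0.213%. Each motif was searched by itself, and matches of different motifs may overlap. A match is a description of letters in a window and not a binding site, and these shares were not tested.

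Among the secreted ligands, the EGF receptor ligands Areg and Ereg were both in the set. Areg, which encodes amphiregulin, measured 139, 122, 125 and 137 TPM in the 6694c2 parental libraries, 56.6, 45.0, 82.3 and 79.1 in line A and 14.3, 19.3, 17.8 and 19.4 in line B. In 6419c5 it measured 59.9, 63.1 and 96.0 in the parental libraries, 57.9, 40.1 and 35.3 in line A and 22.4, 25.7 and 39.9 in line B. All 14 knockout libraries lay below the lowest parental library of their clone, and in 6694c2 line B lay well under line A. Ereg, which encodes epiregulin, measured 14.03, 15.4, 13.3 and 12.3 TPM in the 6694c2 parental libraries, 5.72, 3.82, 9.05 and 7.17 in line A and 3.46, 3.91, 3.65 and 4.16 in line B. Its 6419c5 values were 11.7, 16.6 and 27.5, 7.25, 4.66 and 5.01 and 5.02, 6.34 and 7.75. Again no knockout library reached the parental range, and the spread was widest among the 6419c5 parental libraries. The pair lie next to each other on chromosome 5, 45950 bases apart, and Pf4 lies 301234 bases from Ereg.

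The TGF-beta superfamily ligands Inhba and Bmp2 followed. Inhba, whose product forms activin A, measured 98.7, 125, 105 and 102 TPM in the 6694c2 parental libraries, 44.0, 39.2, 90.03 and 76.5 in line A and 9.44, 5.39, 6.77 and 12.2 in line B. In 6419c5 the values were 47.4, 51.5 and 118, 26.3, 15.3 and 16.8 and 21.5, 33.9 and 34.1. Libraries 3 and 4 of 6694c2 line A lay close to the parental range, while all line B libraries lay far under it. Bmp2, a bone morphogenetic protein, measured 18.2, 18.5, 17.4 and 16.4 in the 6694c2 parental libraries, 1.64, 1.18, 6.61 and 6.14 in line A and 3.23, 4.48, 4.78 and 4.22 in line B. In 6419c5 it measured 42.4, 57.1 and 129, 22.5, 28.0 and 19.7 and 19.4, 36.6 and 30.3. The knockout libraries of both clones lay under the parental range, and 1 parental library of 6419c5 was more than 2 times the others.

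Wnt5a, a Wnt ligand that mostly signals without beta-catenin, measured 5.201, 6.01, 5.43 and 4.78 TPM in the 6694c2 parental libraries, 2.48, 1.70, 3.36 and 4.01 in line A and 0.8002, 0.760, 0.834 and 0.485 in line B. In 6419c5, where it started much higher, it measured 31.0, 35.9 and 64.1, 5.40, 4.75 and 8.71 and 5.50, 6.41 and 3.80. The 6419c5 knockout lines thus stood at about the level of the 6694c2 parental line. Bdnf, brain-derived neurotrophic factor, had ratios of 0.695, 0.366, 0.554 and 0.522 in 6694c2 line A, 6694c2 line B, 6419c5 line A and 6419c5 line B, the order used for all lists of ratios here.

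Pgf, placental growth factor and a ligand of VEGF receptor 1, had ratios of 0.548, 0.0530, 0.663 and 0.394. Qrfp, the precursor of a neuropeptide, had ratios of 0.635, 0.185, 0.0329 and 0.0319, and in 6419c5 it measured 4.68, 3.92 and 6.79 TPM in the parental libraries and at most 0.337 TPM in the 6 knockout libraries. Nrn1, which encodes the neurite growth protein neuritin, was among the more abundant, at 128, 129, 124 and 135 TPM in the 6694c2 parental libraries and 148, 146 and 135 in those of 6419c5. Its ratios were 0.508, 0.660, 0.407 and 0.413, and its mean in 6694c2 line A lay under that in line B, against the usual order. Wisp2, a CCN family matricellular protein, had ratios of 0.635, 0.0898, 0.224 and 0.454. Pf4 is described with the macrophage markers further on.

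**Figure D2:**
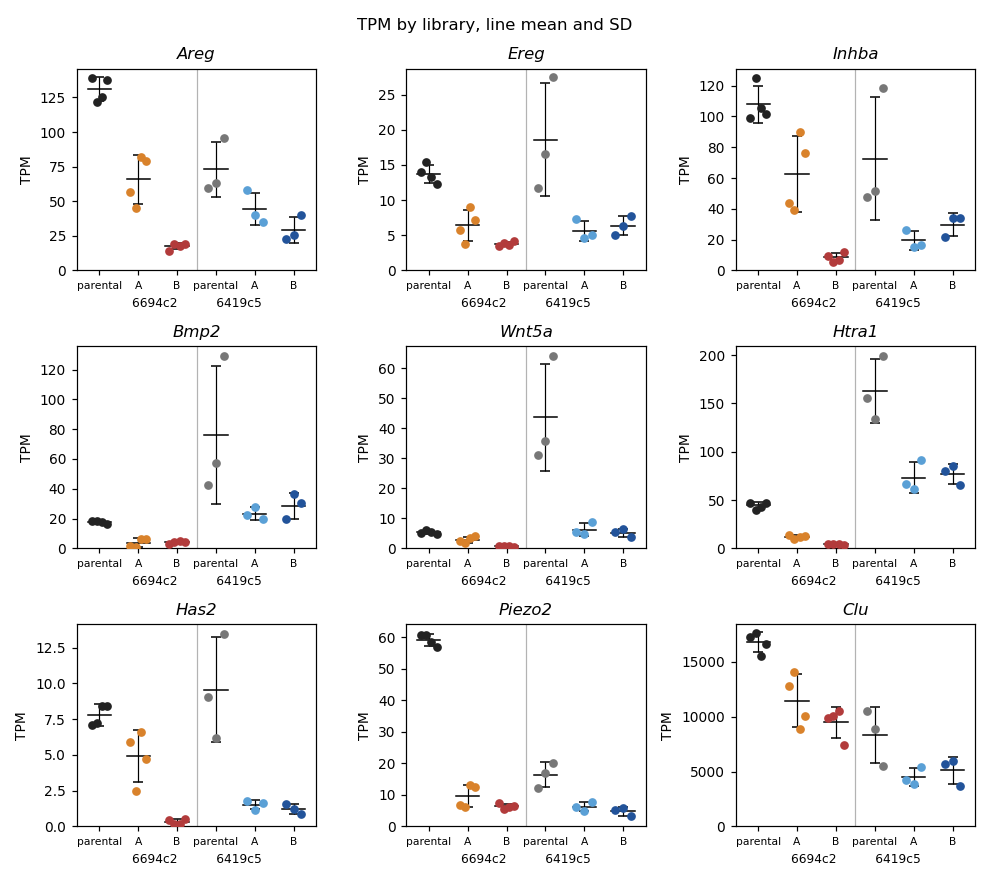
TPM (linear axes from 0) of 9 of the genes in each library (points), by clone and line, with the line mean (bar) and SD; n = 4 per 6694c2 line and n = 3 per 6419c5 line. Points of 6694c2 line A split into a lower and a higher pair for Inhba, Bmp2 and Piezo2, and for Clu the pairs are in the opposite order.

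Among matrix genes and proteases, the reduction in 6694c2 line B was the deepest of the role groups apart from the membrane proteins, with a median ratio of 0.116 over 13 genes, against 0.644 in line A. Has2, which makes hyaluronan, measured 7.07, 7.24, 8.42 and 8.43 TPM in the 6694c2 parental libraries, 5.89, 2.44, 6.63 and 4.68 in line A and 0.459, 0.152, 0.189 and 0.511 in line B. In 6419c5 it measured 9.07, 6.19 and 13.5, 1.76, 1.17 and 1.60 and 1.59, 1.23 and 0.879. The groups did not overlap in either clone. Htra1, a secreted serine protease, measured 47.4, 40.2, 43.4 and 47.5 in the 6694c2 parental libraries, 14.04, 9.98, 12.1 and 12.6 in line A and 4.10, 4.88, 5.03 and 3.48 in line B. In 6419c5 it measured 156, 134 and 199, 66.4, 61.2 and 91.2 and 80.0, 85.4 and 65.2. Its ratios were 0.273, 0.0980, 0.448 and 0.472, so that the lines of 6694c2 stood lower against their parental line than those of 6419c5.

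Cpn1, the catalytic subunit of carboxypeptidase N, showed the reverse. It measured 7.97, 8.26, 5.53 and 7.06 TPM in the 6694c2 parental libraries, 2.35, 6.09, 1.83 and 2.33 in line A and 2.36, 2.29, 2.81 and 2.02 in line B. In 6419c5 it measured 50.9, 32.3 and 17.3, 0.623, 0.398 and 1.01 and 0.693, 0.725 and 0.731, ratios of 0.0202 and 0.0214. In the latter clone the parental libraries themselves differed nearly 3 times. Gzme, a granzyme known from cytotoxic lymphocytes, measured 59.2, 42.2, 38.4 and 49.4 in the 6694c2 parental libraries, 18.5, 19.6, 43.1 and 49.5 in line A and 0.8291, 0.349, 0.534 and 0.639 in line B. Libraries 3 and 4 of line A lay within the parental range and the line B libraries were all under 1 TPM. Gzme belongs to a family of near-identical granzyme genes, so reads may have been shared among its neighbours.

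The metalloproteinase genes Mmp9 and Mmp19 had ratios of 0.647, 0.0996, 0.484 and 0.426 and of 0.678, 0.195, 0.265 and 0.330. Mmp9, a gelatinase, measured 7.01, 2.08, 12.5 and 14.2 TPM in 6694c2 line A and 4.83, 20.8 and 8.44 in 6419c5 line A, so that libraries 3 and 4 of the former and library 2 of the latter lay inside the parental range. In 6419c5 line B it measured 12.6, 12.1 and 5.32, where libraries 1 and 2 also lay inside the parental range. Serpine2, an inhibitor of thrombin and plasminogen activators, had ratios of 0.683, 0.116, 0.185 and 0.480. Fam20a, a partner of the secretory kinase Fam20c, had ratios of 0.292, 0.0417, 0.156 and 0.217. Try5, a trypsin, had ratios of 0.433, 0.0527, 0.376 and 0.375. It is also on the list of pancreatic acinar markers, of which 8 of 14 were listed at 0 in every 6694c2 parental library. The sum of that list without Try5 ran from 67.7 to 73.9 TPM in the 6694c2 parental libraries, 48.5 to 177 in line A and 182 to 242 in line B. In 6419c5 this sum ran from 30.7 to 37.6, 5.11 to 11.2 and 4.76 to 13.9 in the same order of lines. Cela1 and Reg1 made up most of it, so it does not describe the list as a whole. In the 6694c2 parental line, line A and line B, the means of Cela1 were 58.8, 35.9 and 101 TPM. Those of Reg1 were 9.73, 70.7 and 122 TPM. Clu, which encodes the secreted chaperone clusterin, was by far the most abundant member at 17297, 17686, 15580.2 and 16651 TPM in the 6694c2 parental libraries and 10554, 8909 and 5552 in those of 6419c5. Its ratios were 0.683, 0.564, 0.541 and 0.614. The other genes of this group were Col4a5, a basement membrane collagen chain, Olfml2b and Cercam, with ratios between 0.275 and 0.691.

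Of the membrane proteins, Piezo2, a mechanically gated ion channel, had the lowest ratio in 6694c2 line A of all 73. It measured 60.7, 60.9, 58.5 and 56.8 TPM in the 6694c2 parental libraries, 6.72, 6.27, 13.0 and 12.5 in line A and 7.28, 5.61, 6.17 and 6.56 in line B. In 6419c5 it measured 12.04, 17.1 and 19.9, 6.28, 4.77 and 7.59 and 5.23, 5.82 and 3.15. No knockout library overlapped the parental range of its clone. Lpar1, a receptor for lysophosphatidic acid, had ratios of 0.324, 0.0655, 0.505 and 0.539. Fgfr1, a fibroblast growth factor receptor, had ratios of 0.578, 0.114, 0.381 and 0.461, with 1 library of 6694c2 line A and 1 of 6419c5 line A inside the parental range. Olr1, a scavenger receptor for oxidised lipoprotein, had ratios of 0.488, 0.149, 0.0633 and 0.174. Layn, which encodes the hyaluronan-binding protein layilin, had ratios of 0.568, 0.104, 0.241 and 0.202. Dynap had ratios of 0.279, 0.0208, 0.237 and 0.214, and Tmem163, a zinc transport protein, had ratios of 0.292, 0.0247, 0.387 and 0.680.

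Both Ank, whose product takes part in pyrophosphate export, and Slc20a1, a sodium-dependent phosphate importer, handle phosphate and were among the more abundant genes. Ank measured 239, 312, 285 and 266 TPM in the 6694c2 parental libraries, 103, 74.3, 236 and 250.03 in line A and 10.7, 10.5, 10.01 and 11.7 in line B. Its 6419c5 values were 153, 206 and 349, 82.2, 73.1 and 92.9 and 81.0, 86.0 and 84.1. The line A libraries 3 and 4 of 6694c2 reached the lower edge of the parental range, whereas line B stood at about 11 TPM. Slc20a1 measured 125, 164, 135 and 131 in the 6694c2 parental libraries, 51.1, 41.3, 126 and 115 in line A and 17.8, 16.4, 16.5 and 16.9 in line B, with the same split of line A. Ptprn, a protein of secretory vesicle membranes, had ratios of 0.660, 0.0406, 0.362 and 0.542. Atp9a, a phospholipid flippase, and Sspn, a member of the dystrophin complex, had their lowest ratios in 6419c5, at 0.529, 0.487, 0.0399 and 0.170 and 0.681, 0.396, 0.174 and 0.245. Klra4 and Klra18, which encode lectin-like receptors best known from natural killer cells, had ratios of 0.501, 0.0602, 0.153 and 0.441 and 0.589, 0.0777, 0.205 and 0.196. They belong to a family of near-identical genes, Klra18 matched no RefSeq entry, and how reads were divided among the family is not given in the sources used here. Gpr153, Evi2a and Tmem119 completed the group.

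Inside the cell, Rem2, a small GTPase of the RGK family, measured 35.9, 31.0, 28.6 and 30.5 TPM in the 6694c2 parental libraries, 11.3, 15.4, 12.8 and 14.1 in line A and 4.02, 4.12, 4.29 and 3.76 in line B. In 6419c5 it measured 9.93, 9.95 and 14.6, 1.85, 1.496 and 2.51 and 0.979, 0.735 and 1.01. The lines were ordered parental, A, B in both clones with no overlap between neighbours. Arc, an immediate-early gene best known from neurons, had ratios of 0.654, 0.0613, 0.0872 and 0.660, low in line B of 6694c2 and in line A of 6419c5. Fam84a, also named Lratd1, had ratios of 0.680, 0.101, 0.608 and 0.472, and Klhl1, a kelch family protein, had ratios of 0.590, 0.0484, 0.547 and 0.237. The other signalling genes were Map3k20, a stress-activated kinase, Pkn3, a protein kinase C related kinase, Sh2d5, Impact, a regulator of the kinase GCN2, Tacc1, Gfod1, Nrep and Syk. Their ratios ran from 0.136 to 0.696.

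Genes of metabolism and folding were reduced the least in 6694c2 line B, with a median ratio of 0.526 over 6 genes. Pfkfb3, which makes the activator of glycolysis fructose 2,6-bisphosphate, had ratios of 0.604, 0.579, 0.636 and 0.454. Hebp1, a haem-binding protein, had ratios of 0.360, 0.499, 0.661 and 0.235. Sord, sorbitol dehydrogenase, Nme4, a mitochondrial nucleoside diphosphate kinase, Fkbp7, a prolyl isomerase, and Hmox1, haem oxygenase 1, made up the rest. Among the chromatin genes, Cxxc5, a zinc finger protein, had ratios of 0.468, 0.128, 0.0907 and 0.289, and Sall2, a zinc finger transcription factor, had ratios of 0.580, 0.432, 0.252 and 0.127. The 5 histone genes Hist1h3b, Hist1h4h, Hist1h4j, Hist1h4m and Hist2h2be had ratios between 0.254 and 0.682. Replication-dependent histone genes are near-identical in their coding parts and their transcripts mostly lack poly(A) tails, so their levels are uncertain. Sprr1a, a precursor of the cornified envelope, was abundant, at 696, 405, 437 and 599 TPM in the 6694c2 parental libraries and 1263, 1622 and 716 in those of 6419c5. Its ratios were 0.458, 0.202, 0.590 and 0.586, and libraries of 6419c5 overlapped.

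The non-coding and unnamed genes were Mir5103, Mir1894, 3300005D01Rik, Gm19705 and Gm14005, the last named Morrbid in RefSeq. The microRNA genes were patchy, and Mir1894 was listed at 0 in 1 or more libraries of every line. Mir5103 measured 5.18, 22.3, 10.9 and 28.4 TPM in the 6694c2 parental libraries, 6.31, 2.82, 11.9 and 9.26 in line A and 0, 2.66, 0 and 2.58 in line B. A value for the gene is not a measurement of the mature microRNA. The mature sequences in RefSeq are shown to identify them, with the seed, bases 2 to 8, in capitals, and no seed was shared.
miR-5103: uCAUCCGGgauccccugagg
miR-1894-5p: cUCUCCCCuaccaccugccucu
miR-1894-3p: gCAAGGGAgagggugaagggag

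By gene position, 30 of the 73 overlapped another RefSeq gene, among them Evi2a inside Nf1, Qrfp at Abl1 and Mir1894 at Ppp1r10. The counting is not stated to have used strand, so these are uncertain. Chromosome 2 held 14 of the 73 and chromosome 13 held 8. The same shares over all genes were not taken, for overlap or for chromosomes, so nothing is read from these counts. Besides Areg and Ereg, neighbours in the set included Hist1h4j and Hist1h4m, 76290 bases apart, Cercam and Pkn3, 194708 apart, and Tacc1 and Fgfr1, 262335 apart.

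Pf4 was highest in the same library as the macrophage markers in every line, and Hmox1, Syk and Evi2a in 4, 4 and 5 of the 6 lines. This was counted only for these 4 chosen genes, and the share over the other members or over all genes was not taken. Arc, a gene of another role, was also highest in that library in every line. The match is therefore not particular to the 4 genes, and nothing is read from the counts. Pf4, a chemokine of platelets and macrophages, measured 27.8, 118, 26.8 and 10.7 TPM in the 6694c2 parental libraries, 11.1, 13.0, 37.7 and 54.1 in line A and 6.70, 17.2, 9.59 and 8.22 in line B. In 6419c5 it measured 59.4, 209 and 164, 10.5, 221 and 16.2 and 16.2, 21.8 and 20.6. The macrophage marker sum in the same libraries was 319, 1354, 329 and 179 TPM in the 6694c2 parental line, 173, 358, 821 and 955 in line A, and 64.9, 347, 179 and 99.4 in line B. In 6419c5 the sum was 919, 2518 and 2261 in the parental line, 291, 4329 and 202 in line A, and 226, 373 and 262 in line B. Library 2 of 6419c5 line A was the highest of all 21 for both Pf4 and the sum. Syk, a kinase of immune receptors, measured 1.09, 14.1 and 0.895 TPM in 6419c5 line A, Hmox1 46.8, 163 and 35.5 and Evi2a, a membrane protein encoded within Nf1, 1.71, 23.2 and 2.27. In the 6419c5 parental line all 3 were highest in library 3, where the macrophage sum was 2261 TPM against 2518 in library 2. The sum of 6 pan-leukocyte markers in that line was 105, 241 and 261 TPM, also highest in library 3. Evi2a measured 7.39, 7.40, 7.32 and 6.41 TPM in the 6694c2 parental libraries, a narrow range beside that of the macrophage sum. The part of macrophage RNA in these values was not tested. Library 2 of the 6694c2 parental line and library 2 of 6419c5 line A were also left out together, a setting chosen after seeing the data. Without them 68 genes met the rule, 65 of them among the 73. Pf4, Hmox1, Syk, Arc, Mmp19, Pgf, Mir1894 and Gm19705 no longer met it.

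**Figure D3:**
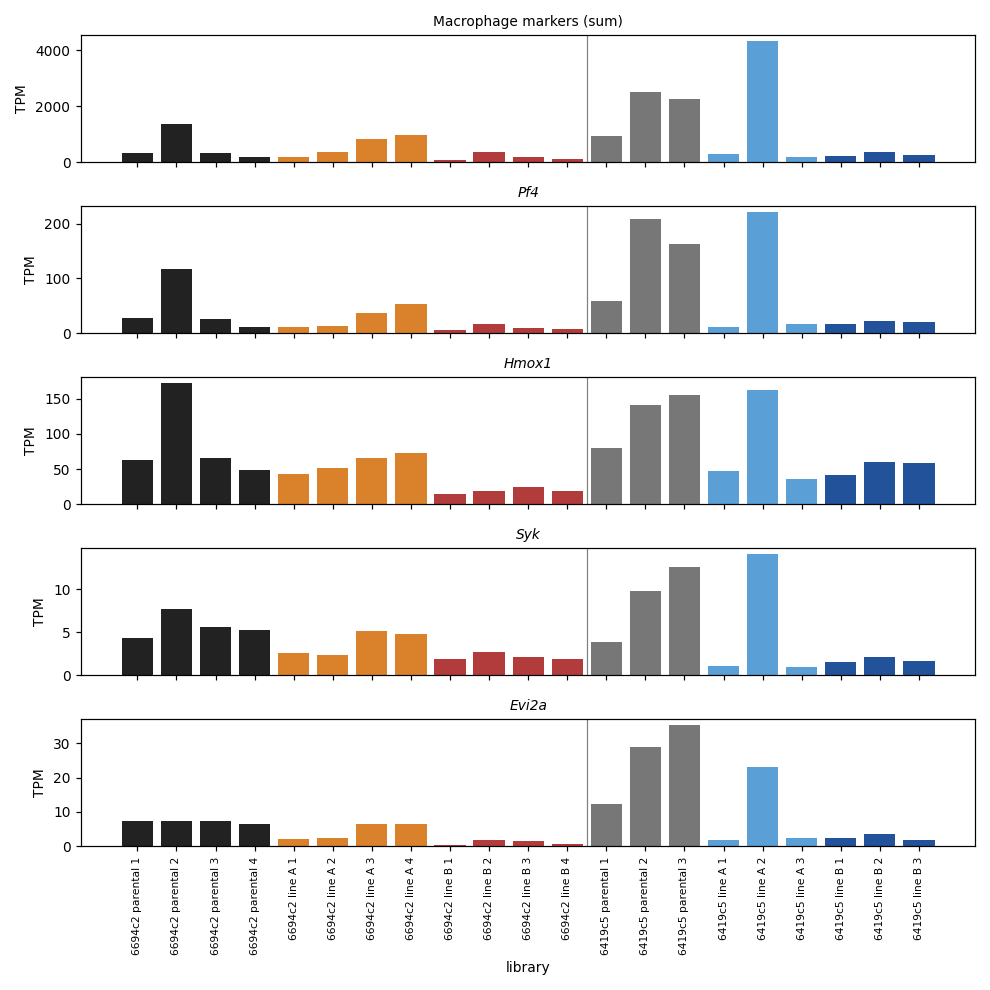
TPM (linear axes from 0) in each of the 21 libraries of the sum of 15 macrophage markers and of Pf4, Hmox1, Syk and Evi2a; bars are single libraries, coloured by line. Library 2 of 6419c5 line A is the highest of its line in all 5 panels, at 4329 TPM for the marker sum and 221 TPM for Pf4.

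Membership depended on single libraries, most of all in 6694c2 line A. Leaving out libraries 1 and 2 of that line left 44 genes, of which 42 were among the 73. Leaving out libraries 3 and 4 gave 123, of which 67 were among the 73. The macrophage marker sum was higher in libraries 3 and 4 (821 and 955 TPM) than in 1 and 2 (173 and 358), and Epha2 was 108, 92.1, 129.7 and 129.7 TPM in the 4 libraries. The part of either difference in the members' values was not tested. Leaving out any single library gave 56 to 87 genes, and 31 of the 73 met the rule whichever library was left out. Those 31 included Ereg, Bmp2, Inhba, Wnt5a, Nrn1, Htra1, Cpn1, Fam20a, Piezo2, Lpar1, Fgfr1, Olr1, Layn, Rem2 and Klhl1. Areg, Has2, Ank and Gzme, described above, were not among the 31. The 5 members nearest to the threshold had a highest ratio of 0.683 for Serpine2, 0.691 for Gzme, 0.691 for Cercam, 0.695 for Bdnf and 0.696 for Nrep. Just outside lay Mgp and Hist1h4a at 0.702 and 0.703, S100g at 0.704, Serpinh1 at 0.705 and Aox1 at 0.706.

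The thresholds were also met by Siglec15 and Grem1, which the rule leaves out, while Mmp3 had a ratio of 0.986 in 6694c2 line A and did not meet them. In all, 200 of the 9412 genes were at most 0.7 times parental in both 6694c2 lines and 463 in both 6419c5 lines. The 75 genes in both sets, which are the 73 with Siglec15 and Grem1, were 37.5% of the former and 16.2% of the latter.

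The next comparison asked whether the 73 genes differed between line A and line B of a clone, which the rule bounds but does not fix. It used limma on log2(TPM + 1) over 14337 genes, with a gene called at a Benjamini-Hochberg adjusted p under 0.05. The p-values measure the spread between libraries of a line, which may be technical. In 6694c2, 53 of the 73 were called higher in line A and 1 in line B, with a median log2 difference of 1.18. Over all genes tested, 22.9% were called higher in line A, 23.6% were called higher in line B, and the median was 0.01. Line B had 13.7% of the 9412 genes at or under 0.7 times parental, and line A 3.48%. In 6419c5 these shares were 7.92% for line A and 8.84% for line B. Among the 127 genes that were low in both 6694c2 lines but were not members, 59 were called higher in line A and 8 in line B. The 5 members with the smallest p were Fam84a, Ptprn, Pgf, Gzme and Klhl1. Fam84a measured 138, 115, 141 and 145 TPM in line A and 22.5, 16.3, 17.6 and 23.2 in line B, a log2 difference of 2.71 ± 0.13 (SE, adjusted p = 8.2e-11). Ptprn measured 133, 112, 200.03 and 222 and 13.9, 9.04, 8.73 and 9.38, a difference of 3.86 ± 0.19 (SE, adjusted p = 1e-10). The lines did not overlap for either gene. For Gzme the log2 difference was 4.28 ± 0.29 (SE, adjusted p = 3e-09), for Klhl1 2.84 ± 0.21 (SE, adjusted p = 8.7e-09) and for Pgf 2.73 ± 0.18 (SE, adjusted p = 1.8e-09). Hebp1 was the member called higher in line B, by a log2 difference of -0.43 ± 0.15 (SE, adjusted p = 0.03), and was named in this place after its value was seen. The 19 members that were not called included Nrn1, Clu, Bmp2, Piezo2, Cpn1, Atp9a, Col4a5, Pfkfb3 and Nme4.

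In 6419c5 the lines differed less. There 5 of the 73 were called higher in line A and 10 in line B, against 4.76% and 12.7% of all genes tested, with a median log2 difference of 0.00 beside -0.04 over all. The members' share of calls, 20.5%, was near the background of 17.4%. Hebp1 measured 16.4, 23.7 and 15.6 TPM in line A and 6.18, 7.48 and 6.13 in line B, a log2 difference of 1.34 ± 0.18 (SE, adjusted p = 6.4e-05), opposite in sign to its difference in 6694c2. Arc measured 0.424, 0.963 and 0.380 in line A and 4.30, 5.21 and 3.84 in line B, a difference of -1.79 ± 0.31 (SE, adjusted p = 0.00066). For Arc too the order was opposite to that in 6694c2, where the difference was 2.75 ± 0.27 (SE, adjusted p = 2.4e-07). Cxxc5 was lower in line A, by a log2 difference of -1.16 ± 0.23 (SE, adjusted p = 0.0017), while Klhl1 and Rem2 were higher there, by 1.07 ± 0.25 (SE, adjusted p = 0.0058) and 0.62 ± 0.15 (SE, adjusted p = 0.0077). The call of Rem2 was lost with a pseudocount of 5 (adjusted p = 0.124) and with only these lines in the fit (adjusted p = 0.064). The count of 15 fell to 8 or 9 without library 1, 2 or 3 of line A or without library 1 or 2 of line B, and to 7 with no filter on low values.

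**Figure D4:**
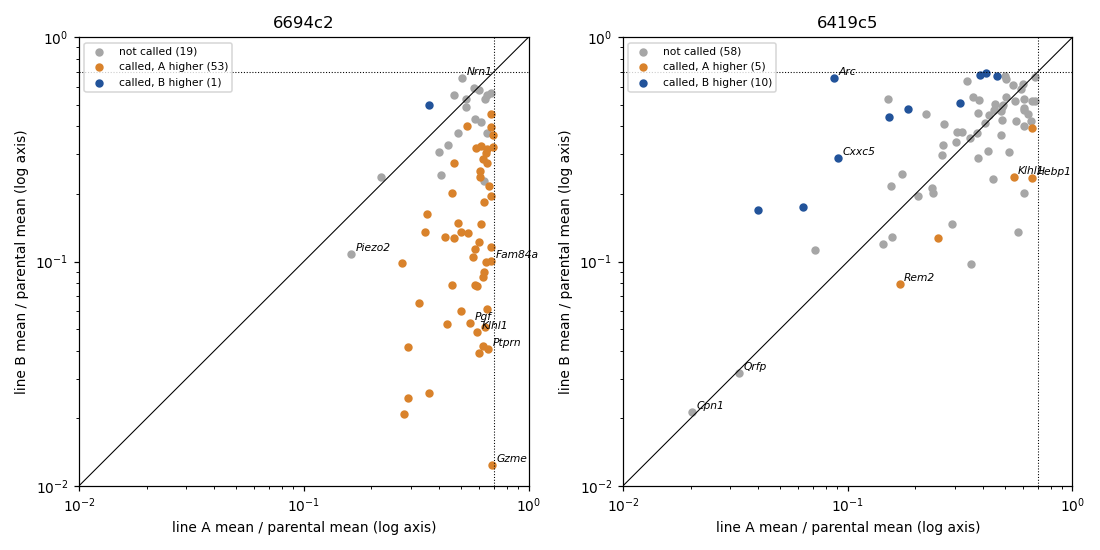
Ratio of the line A mean (x) and of the line B mean (y) to the parental mean for each of the 73 genes, in 6694c2 (left) and 6419c5 (right), both axes logarithmic; the solid line marks equal ratios, the dotted lines the limit of 0.7, and colours the limma call of line A against line B. In 6694c2 most points lie below the diagonal, 53 of them called higher in line A, and in 6419c5 they lie on both sides of it.

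The parental lines were compared because the rule asks only that both reach 5 TPM. Of the 73, 25 were called higher in parental 6694c2 and 23 in parental 6419c5, with a median log2 difference of -0.04. Over all genes tested 21.5% were called higher and 32.0% lower, 53.5% in all, with a median of -0.11. The 5 with the smallest p were Fam84a, Htra1, Wnt5a, Hist1h4m and Rem2. Fam84a measured 231, 191, 165 and 204 TPM in 6694c2 and 48.2, 41.9 and 64.5 in 6419c5, a log2 difference of 1.93 ± 0.14 (SE, adjusted p = 4.3e-09). Wnt5a, Htra1 and Nrep were higher in 6419c5. The log2 difference was -2.75 ± 0.24 (SE, adjusted p = 4.2e-08) for Wnt5a, -1.83 ± 0.16 (SE, adjusted p = 2.9e-08) for Htra1 and -2.32 ± 0.24 (SE, adjusted p = 2.6e-07) for Nrep. Hist1h4m and Rem2 were higher in 6694c2, by 2.27 ± 0.22 (SE, adjusted p = 1.2e-07) and 1.40 ± 0.14 (SE, adjusted p = 1.8e-07). Areg was higher in 6694c2 by 0.86 ± 0.23 (SE, adjusted p = 0.0035), and Ereg was not called (log2 difference -0.33 ± 0.24 (SE, adjusted p = 0.25)). Bmp2 was higher in 6419c5, with a log2 difference of -1.89 ± 0.39 (SE, adjusted p = 0.00053), whereas Gzme and Piezo2 were higher in 6694c2, by 2.35 ± 0.32 (SE, adjusted p = 6.3e-06) and 1.82 ± 0.23 (SE, adjusted p = 3e-06).

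The knockout effect, the mean of both knockout lines less the parental line on the log2(TPM + 1) scale, was then compared between clones. The rule pushes it below 0 in both clones and does not use their difference. Of the 73, 22 were called, 7 with the lower level relative to parental in 6419c5 and 15 in 6694c2. That is 30.1%, near the 28.6% of all genes tested, of which 13.0% were called in the first direction and 15.6% in the second. Cpn1 differed the most, by 3.05 ± 0.36 (SE, adjusted p = 7.7e-06) (6694c2 less 6419c5). Sspn, at 1.10 ± 0.18 (SE, adjusted p = 0.0002), was also lower relative to parental in 6419c5. So were Wnt5a, at 1.37 ± 0.29 (SE, adjusted p = 0.0019), and Qrfp, at 1.12 ± 0.25 (SE, adjusted p = 0.0022). By the mean of both knockout lines, Htra1, Fam84a and Lpar1 were lower relative to parental in 6694c2, at -1.34 ± 0.19 (SE, adjusted p = 4.9e-05), -1.05 ± 0.17 (SE, adjusted p = 0.0002) and -1.44 ± 0.24 (SE, adjusted p = 0.00027). Areg was called in the same direction, at -0.92 ± 0.28 (SE, adjusted p = 0.018), and Ereg was not, at 0.10 ± 0.29 (SE, adjusted p = 0.84). Because the effect is a mean of both lines, 1 line alone can carry a call. For Fam84a the ratios were 0.680 and 0.101 in lines A and B of 6694c2, and 0.608 and 0.472 in those of 6419c5. For Gzme they were 0.691 and 0.0124, and 0.427 and 0.448. In both genes 6694c2 line A was the least reduced line. For Htra1 and Lpar1 both 6694c2 lines had the lower ratios. Members that were not called may still differ, as the SE of Pf4, 1.05, shows. A difference on the log2(TPM + 1) scale understates the change of genes of a few TPM. That applies to Wnt5a in 6694c2 line B, which lay under 1 TPM. As a ratio of TPM, that line stood about as far below its parental line as the 6419c5 lines did. Line A of 6694c2 was higher than line B for Wnt5a, by a limma log2 difference of 1.14 ± 0.22 (SE, adjusted p = 0.00037).

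**Figure D5:**
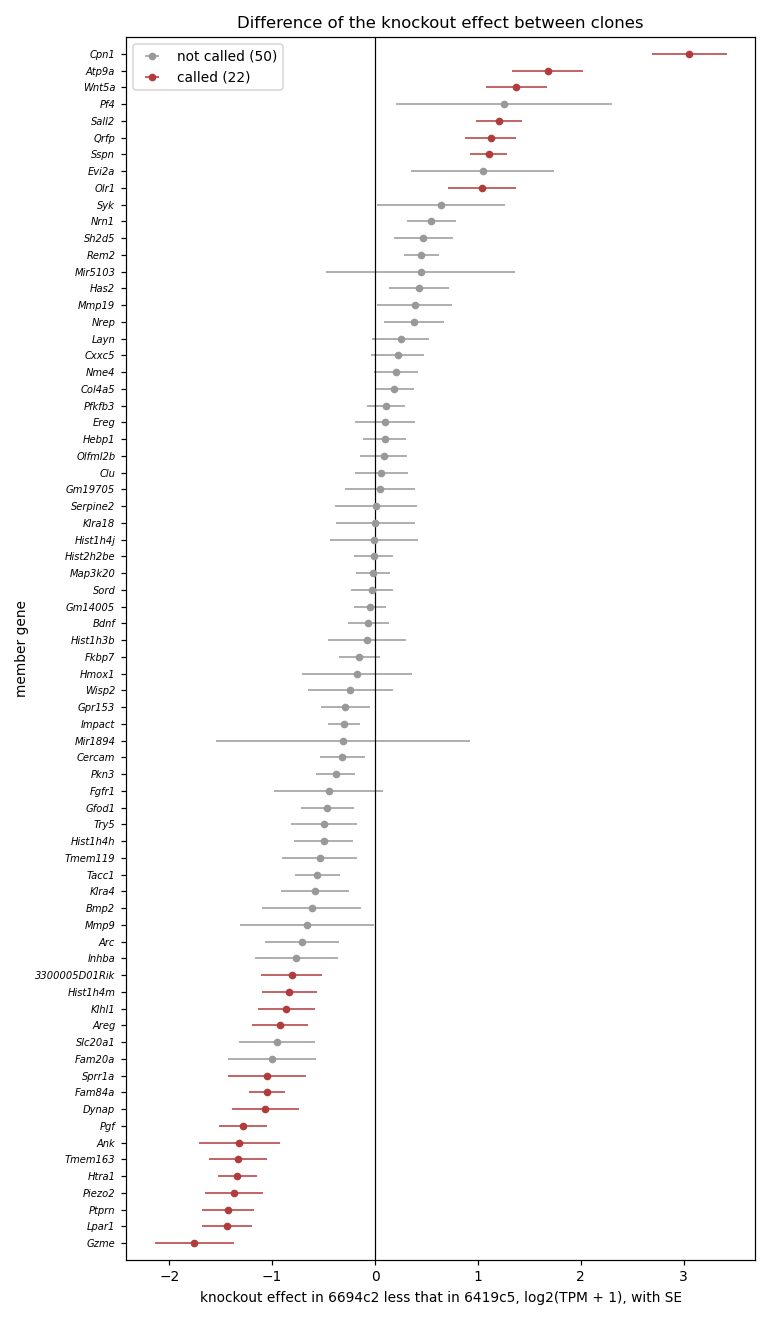
Difference of the knockout effect between the clones (6694c2 less 6419c5) for 72 of the 73 genes on the log2(TPM + 1) scale; points are limma estimates and bars 1 SE, red where called at an adjusted p under 0.05. The estimates run from -1.76 for Gzme to 3.05 for Cpn1, and 22 are called.

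The genes around the members in their pathways did not fall throughout, and in 6694c2 the 2 knockout lines differed for them. The following counts leave out the members. Each clone's knockout effect is the mean of its 2 knockout lines less the parental line in the same limma fit, so that 1 line alone can carry a call. By this test 37.4% of all genes were called in 6694c2 (23.9% rose and 13.5% fell) and 41.4% in 6419c5 (26.5% rose and 15.0% fell). Ratios to parental are given beside it for the genes of each list that reached the parental floor. Over all 9339 such genes the median ratio was 1.04 in 6694c2 line A, 1.04 in 6694c2 line B, 1.03 in 6419c5 line A and 1.07 in 6419c5 line B.

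Of 10 other EGF receptor family and ligand genes tested, 2 rose and 3 fell in 6694c2, and 2 rose and 2 fell in 6419c5. The median ratio of the 7 at the floor was 0.894 in 6694c2 line A and 0.807 in line B. Btc, a further EGF receptor ligand, fell by this test in both clones, by -0.81 ± 0.10 (SE, adjusted p = 3e-06) and -0.62 ± 0.11 (SE, adjusted p = 0.0002), with ratios of 0.882, 0.364, 0.645 and 0.630 in the same order of lines. Erbb2, the receptor tyrosine kinase HER2, rose in both, by 0.80 ± 0.09 (SE, adjusted p = 1.2e-06) and 1.26 ± 0.10 (SE, adjusted p = 2.5e-08), with a ratio of at least 1.49 in each line. Hbegf and Egfr fell in 6694c2, by -0.91 ± 0.13 (SE, adjusted p = 3.2e-05) and -0.66 ± 0.15 (SE, adjusted p = 0.002), and in 6419c5 measured 0.20 ± 0.15 (SE, adjusted p = 0.32) and 0.21 ± 0.17 (SE, adjusted p = 0.34). The 6694c2 ratios were 0.757 in line A and 0.386 in line B for Hbegf, and 0.894 and 0.435 for Egfr. Of 21 other genes of ERK pathway output, 1 rose and 10 fell in 6694c2, and 3 rose and 5 fell in 6419c5. The low values of 6694c2 were those of line B, where the median ratio was 0.514 and 12 of the 20 genes at the floor were at or under 0.7. In line A the median was 1.08 and none of the 20 was that low. Between the lines, 15 of the 21 were called higher in line A and 0 in line B. Dusp4, an ERK phosphatase, fell by the test of the mean in both clones, by -1.19 ± 0.14 (SE, adjusted p = 4.6e-06) and -0.51 ± 0.17 (SE, adjusted p = 0.021), with ratios of 0.894, 0.213, 0.692 and 0.672.

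For the TGF-beta list the 6694c2 lines differed in the same way. Of 32 other TGF-beta pathway genes and targets, a list that includes Grem1, 3 rose and 16 fell in 6694c2 and 6 rose and 12 fell in 6419c5. The median ratio of the 28 at the floor was 1.03 in 6694c2 line A and 0.679 in line B, with 1 and 16 genes at or under 0.7, and 21 of the 32 were called higher in line A and 4 in line B. In 6419c5 the medians were 0.848 and 0.995, and 1 was called higher in line A and 13 in line B. Ltbp1 and Ltbp2, which encode latent TGF-beta binding proteins, fell by the test of the mean in both clones. For Ltbp1 the effects were -0.81 ± 0.10 (SE, adjusted p = 4.2e-06) and -1.40 ± 0.11 (SE, adjusted p = 2.9e-08), with ratios of 0.853, 0.377, 0.354 and 0.382.

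Of 28 other metalloproteinase and inhibitor genes, a list that includes Mmp3, 3 rose and 12 fell in 6694c2 and 8 rose and 6 fell in 6419c5. In 6694c2 the median ratio of the 19 at the floor was 1.05 in line A and 0.512 in line B, with 3 and 11 at or under 0.7, and 17 of the 28 were called higher in line A and 2 in line B. Mmp10, a stromelysin, had effects of -2.15 ± 0.35 (SE, adjusted p = 0.0001) and -2.15 ± 0.40 (SE, adjusted p = 0.00035). Its mean was 1.19 times parental in 6694c2 line A and 0.0148 times in line B, so that the low mean in that clone came from line B, while the 6419c5 ratios were 0.148 and 0.146. Of 27 other Wnt pathway genes, 8 rose and 6 fell in 6694c2 and 7 rose and 5 fell in 6419c5, and Wnt10a rose in both, by 2.49 ± 0.24 (SE, adjusted p = 3.7e-07) and 2.46 ± 0.28 (SE, adjusted p = 1.9e-06), with a ratio of at least 3.50 in each line. The median ratio of the 9 Wnt genes at the floor was 1.59 in 6694c2 line A and 0.851 in line B.

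Of 40 other cytokines, chemokines and growth factors, 6 rose and 17 fell in 6694c2 and 14 rose and 5 fell in 6419c5. The 26 at the floor had a median ratio of 1.07 in 6694c2 line A, with 3 at or under 0.7, and of 0.468 in line B, with 21. Of the 40, 21 were called higher in line A and 5 in line B. Of 29 other hypoxia and glycolysis genes, the list of Pfkfb3, 1 rose and 16 fell in 6694c2 and 5 rose and 4 fell in 6419c5. All 29 were at the floor, with a median ratio of 1.14 in 6694c2 line A and 0.633 in line B, and 1 and 20 genes at or under 0.7. Between these lines 25 of the 29 were called higher in line A and 1 in line B. Of 26 other glutathione and NRF2 genes, the list of Hmox1, 6 rose and 8 fell in 6694c2 and 11 rose and 4 fell in 6419c5. Here the order was the opposite, with a median ratio of 0.848 in 6694c2 line A and 1.15 in line B over the 23 at the floor, and 3 of the 26 were called higher in line A and 16 in line B.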

How the data were processed

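Total RNA of sorted tumour cells was sequenced in 21 libraries. The deposited values are gene-level TPM, which the authors made with Salmon against mm10, per the submitters' processing notes; its version and annotation are not given in the sources used here. TPM keeps no read number, so depth is unknown and the spread between libraries is the only precision available. Columns were assigned to groups by the names in the table header, and 0 columns were left unused.

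Ratios were taken between group means of TPM. Tests used limma 3.58.1 in R 4.3.3 on log2(TPM + 1), a pseudocount of 1, for the 14337 genes that reached 1 TPM in 3 or more libraries. A mean was fitted for each of the 6 lines (eBayes with trend, two-sided, 15 residual degrees of freedom), and Benjamini-Hochberg adjustment ran over all genes tested. The procedure was tested on simulated data. Other steps used Python 3.11.15 with pandas 2.3.3. Gene positions, promoters and microRNAs were from RefSeq, GRCm38.p6, and 72 of the 73 symbols matched.

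The set and the gene lists were chosen with earlier results of these data known. Named genes were the 20 members with the lowest mean log2 ratio, the 10 with the highest parental mean, the 5 with the smallest p in each tested comparison, members of a gene list, and the 5 nearest the threshold on either side, passing over unnamed gene models; the others were named by role after the members were known. Roles were assigned by hand. The values of 1 member and of 1 other listed gene are not reported here, and the member is left out of the plots by gene name. Alternatives varied the ratio, floor, scaling, pseudocount, filter, fit and libraries.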

Additional observations from a re-analysis of the deposited data

Results flagged for a closer look

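Among the 45 members named by the rule, 135 groups of 4 libraries, each a gene in a 6694c2 line, were examined for a single library far from the other 3. Of these groups 7 were flagged. Chance flags about 1 in 20 groups, so about as many would be flagged by chance, and nothing is read from the count. Hmox1 measured 172.5 TPM in library 2 of the 6694c2 parental line against 49.0 to 66.5 in the others, and that library also had the highest macrophage marker sum of its line. The part of macrophage RNA in this value was not tested. In 6694c2 line A, Cpn1 measured 6.09 TPM in library 2 against 1.83 to 2.35, Nrep measured 5.14 in library 1 against 8.92 to 9.61, and Try5 measured 1.37 in library 1 against 3.62 to 4.06. In 6694c2 line B, Bdnf measured 2.77 TPM in library 2 against 4.20 to 4.36, Hist1h4m measured 29.4 in library 4 against 16.2 to 17.8, and Ptprn measured 13.9 in library 1 against 8.73 to 9.38.

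The knockout effect differed between the clones, by limma's test of the difference itself, for 22 of the 73 genes. That is 30.1%, near the 28.6% of all genes tested, so the count is not particular to the members. The 5 with the smallest p were Cpn1 at 3.05, Htra1 at -1.34, Fam84a at -1.05, Sspn at 1.10 and Lpar1 at -1.44 (log2, 6694c2 less 6419c5).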

How the results depend on the processing

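The number of genes that met the rule was 73 as reported, 30 with a ratio of 0.6 and 131 with 0.8. It was 44 without libraries 1 and 2 of 6694c2 line A and 123 without libraries 3 and 4, both settings chosen after seeing the data. Leaving out each library in turn gave 56 to 87. With median-of-ratios size factors or quantile normalization it was 100, which included all 73 or 70 of them, and Clu moved to a mean log2 ratio of -0.29 under the latter. The number of members called in 6419c5 line A against line B was 15 as reported, 7 with no filter on low values, and 8 to 18 when each library was left out in turn. Counts called ranged from 41 to 50 for the parental lines, 49 to 55 for 6694c2 line A against line B and 17 to 24 for the difference between clones when a library was left out. Size factors gave 29 higher and 21 lower members between the parental lines, against 25 and 23. Among results for single genes, only the call of Rem2 in 6419c5 line A against line B was lost under the settings that kept all libraries. Library numbers were not used as pairs in the reported fit. The correlation of deviations between same-numbered libraries ran from -0.15 to 0.17 over 21 pairs, with 6 over 0.1. Libraries of different number were not correlated, so this cannot decide whether the numbers pair the samples. With the library number as a replicate block the counts called were 50, 53, 13 and 22 for the parental, 6694c2, 6419c5 and between-clone comparisons. The cause of these movements was not tested. Depth is unknown, so no counting error can be given for low values such as those of the microRNA genes.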
